A study of Homo sapiens with 4 samples.

Results

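CpG islands are stretches of DNA rich in the dinucleotide CpG, and most of them lie at the starts of genes. Described here are the H3K4me3 peaks on CpG islands that lie elsewhere, in introns or between genes, often called orphan CpG islands. A merged peak of the deposited table was a member if it was annotated as intron or intergenic, if its detailed annotation was a CpG island, and if it lay over 2000 bases from the nearest transcription start site (TSS) of the authors' annotation. This rule used position only and no measured value, and it chose 3135 of 110018 merged peaks, 1024 in introns and 2111 between genes. H3K4me3 had been profiled by CUT&Tag, in which an antibody tethers the transposase Tn5 to a histone mark so that the marked DNA is cut and sequenced, in the luminal breast cancer cell line HCC1428, which is labelled wild type. There were 2 libraries from cells given 2.5 µM of C48, an inhibitor of the KDM5 demethylases, and 2 libraries from cells given the vehicle DMSO, all collected on day 5. The labels number the libraries of each group as biological replicates but do not say whether they came from separate cultures, so a p-value reflects only how far these libraries differ among themselves, a spread that may be technical.

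H3K4me3 is deposited on nucleosomes at CpG islands by SET1 and MLL complexes, in part through CXXC-domain subunits that bind unmethylated CpG, and it is removed by the KDM5 enzymes (KDM5A to KDM5D), which are known to act mainly at promoters. Orphan islands are often unmarked in a given cell type. Many are known to serve as promoters of noncoding or alternative transcripts, or as Polycomb-bound elements near developmental genes, and some act with enhancers.

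The name promises distance from promoters, which holds for the authors' RefSeq-based annotation, in which members lay a median of 18.8 kb from a TSS. Against the larger GENCODE version 44 annotation it held in part. Of the 3135 members, 1233 (39.3%) had a GENCODE transcript start within 1 kb, and 602 had a protein-coding one. A further 1848 lay over 1 kb from such starts, and 54 lay on contigs that this annotation does not cover. The members are therefore called CpG-island peaks outside annotated promoters below, and results are given for both subsets. The sequence fitted the island label. In 300 bases about the peak centre, the 3119 members with sequence had a median GC content of 68.7% and 26 CpGs, against 49.3% and 5 CpGs for peaks at the same kind of position without an island (72009 with sequence). The ratio of observed to expected CpG passed 0.6 in 90.2% of members and in 11.98% of those other peaks.

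The centres of 7 members are printed because the results turn on them and because no GENCODE exon overlaps them. They were picked from the named members after their values were seen. The first 3 lie under peaks that rose in C48, the next 2 under a neighbouring pair at FOXA1 that moved in opposite directions, and the last 2 under peaks that fell. Each is 300 bases of hg38, plus strand, 5′ to 3′, with every CpG in capitals.
CCND2 member that rose, chr12:4271043-4271342: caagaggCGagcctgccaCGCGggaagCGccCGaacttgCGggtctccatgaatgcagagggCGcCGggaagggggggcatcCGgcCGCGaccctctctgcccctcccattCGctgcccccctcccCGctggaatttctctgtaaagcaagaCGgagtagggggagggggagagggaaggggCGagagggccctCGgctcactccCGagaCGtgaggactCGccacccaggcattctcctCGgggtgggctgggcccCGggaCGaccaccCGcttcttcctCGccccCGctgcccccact
PAX7 member that rose, chr1:18646796-18647095: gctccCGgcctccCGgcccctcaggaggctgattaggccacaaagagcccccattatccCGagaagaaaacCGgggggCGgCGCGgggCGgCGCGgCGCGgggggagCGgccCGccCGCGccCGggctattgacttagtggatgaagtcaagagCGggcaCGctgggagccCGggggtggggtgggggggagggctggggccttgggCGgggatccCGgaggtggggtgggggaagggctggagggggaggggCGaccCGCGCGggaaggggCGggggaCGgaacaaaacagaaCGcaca
UNCX member that rose, chr7:1235199-1235498: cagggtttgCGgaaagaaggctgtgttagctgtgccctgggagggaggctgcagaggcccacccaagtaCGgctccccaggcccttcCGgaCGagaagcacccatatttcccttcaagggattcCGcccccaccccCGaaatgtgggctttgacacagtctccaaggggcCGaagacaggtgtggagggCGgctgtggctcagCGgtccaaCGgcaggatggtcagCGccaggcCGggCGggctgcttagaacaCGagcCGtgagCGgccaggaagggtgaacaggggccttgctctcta
FOXA1 member that rose, chr14:37584406-37584705: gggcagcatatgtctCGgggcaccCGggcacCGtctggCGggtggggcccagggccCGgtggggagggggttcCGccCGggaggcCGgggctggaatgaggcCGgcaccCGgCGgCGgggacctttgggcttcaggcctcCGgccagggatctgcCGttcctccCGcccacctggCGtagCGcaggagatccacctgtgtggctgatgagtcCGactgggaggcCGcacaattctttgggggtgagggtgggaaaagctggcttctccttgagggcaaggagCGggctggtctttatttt
FOXA1 member that fell, chr14:37583607-37583906: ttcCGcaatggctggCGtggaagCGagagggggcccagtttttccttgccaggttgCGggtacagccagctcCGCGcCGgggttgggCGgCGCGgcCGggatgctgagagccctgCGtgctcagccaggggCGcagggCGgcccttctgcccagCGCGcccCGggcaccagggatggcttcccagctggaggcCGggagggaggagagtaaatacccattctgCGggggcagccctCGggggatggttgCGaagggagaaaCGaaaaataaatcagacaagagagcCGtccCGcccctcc
STMN3 member that fell, chr20:63641586-63641885: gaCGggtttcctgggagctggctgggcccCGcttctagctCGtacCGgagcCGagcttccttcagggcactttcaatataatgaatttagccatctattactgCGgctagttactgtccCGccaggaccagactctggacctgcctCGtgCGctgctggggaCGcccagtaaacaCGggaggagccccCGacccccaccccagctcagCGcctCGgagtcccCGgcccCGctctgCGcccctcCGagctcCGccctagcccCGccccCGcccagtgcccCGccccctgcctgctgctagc
MIR193BHG member that fell, chr16:14285407-14285706: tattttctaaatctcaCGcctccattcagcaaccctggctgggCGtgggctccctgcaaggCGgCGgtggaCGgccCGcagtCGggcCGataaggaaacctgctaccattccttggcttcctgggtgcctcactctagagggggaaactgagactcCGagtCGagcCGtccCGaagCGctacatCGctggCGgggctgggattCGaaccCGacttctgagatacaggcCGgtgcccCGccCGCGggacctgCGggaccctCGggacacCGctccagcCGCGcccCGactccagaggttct

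These windows held 25, 29, 16, 20, 24, 22 and 27 CpGs in the order printed. Being picked, they do not stand for the members at large. Tested members that rose had a median of 25 CpGs, and those that fell had 29.

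Values below are tags per 10 M aligned tags, as deposited, multiplied by TMM scaling factors. TMM takes the bulk of peaks as unchanged, and it shifted C48 against DMSO libraries by 0.33 on the log2 scale, so each direction is relative to that bulk. Without TMM, as deposited, fold changes are higher by about this shift, so small negative medians given below turn positive there. A change in H3K4me3 common to the whole genome is not measured on this scale. The study added Drosophila nuclei to its samples as a reference and reported a global rise of H3K4me3 with C48. It stated that peaks of C48 samples are undercounted when not scaled to that reference. A fall given below is therefore relative to the bulk of peaks and does not show that the mark was lost. Of the members, 2341 had a mean deposited value of at least 5 and were tested, together with all other such peaks, 43712 in all. The other 794 were too weak, and 53 of them had no tag in any library. Of the tested members, 121 had a DMSO mean under 5 and passed this limit only through C48, and 7 passed only through DMSO. Fold changes are C48 over DMSO on the log2(value + 1) scale, where the change of a weak peak is understated, and a peak was called at an adjusted p under 0.05 (limma, Benjamini-Hochberg over all tested peaks).

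Relative to the bulk of peaks, H3K4me3 rose at 866 of the 2341 tested members and fell at 630, while 845 did not pass the test. Over all tested peaks, 37.4% were called higher and 34.1% lower. The members' 37.0% higher was thus near the share of all peaks, and their 26.9% lower was below it. Their median fold change was 0.13, beside 0.09 over all tested peaks. Both C48 libraries lay above both DMSO libraries at 1092 members and below them at 772, and the groups overlapped at 477, which is 46.65% above, beside 45.39% over all tested peaks, and 32.98% below, beside 39.33%. Among the 2213 members with both group means at least 5, a split added after the data were seen, 786 rose and 626 fell, with a median of 0.09. In bulk cells, a change in the number of cells carrying the mark and a change in the mark per cell cannot be told apart. The count of calls depended on the scaling. On the values as deposited, 1396 members were higher and 299 lower (all tested peaks, 23910 and 9130), and with libraries scaled to ribosomal protein promoters 1970 were higher and 56 lower (all tested peaks, 34227 and 2297). The difference between the members' median and that of all peaks stayed within 0.04 to 0.05 under these scalings.

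A share within each library needs no scaling between libraries. Members held 4.25% and 4.21% of the in-peak tags of the C48 libraries, against 3.68% and 3.70% in the DMSO libraries. The groups did not overlap, and the mean was 4.23% ± 0.03 in C48 and 3.69% ± 0.01 in DMSO cells (SD, n = 2 each), a ratio of 1.15. The 95% Wilson intervals of these shares were at most 0.013 percentage points wide and cover counting error only, since mates and PCR copies are not independent. A second comparison was with the 4302 CpG-island peaks within 2 kb of a TSS, whose tested peaks were annotated as intron or intergenic, not promoter. Members held 23.5% and 23.2% of the signal of those peaks in C48 cells and 18.8% and 19.03% in DMSO cells. Set against the 72048 intron and intergenic peaks without an island, the order turned round: members held 47.9% and 49.6% of their signal in C48 cells and 66.5% and 64.8% in DMSO cells. In all 11 comparisons of shares computed, the two-sided exact permutation test gave p = 0.33 (also after Benjamini-Hochberg adjustment), the smallest p that 2 libraries against 2 allow.

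**Figure D1:**
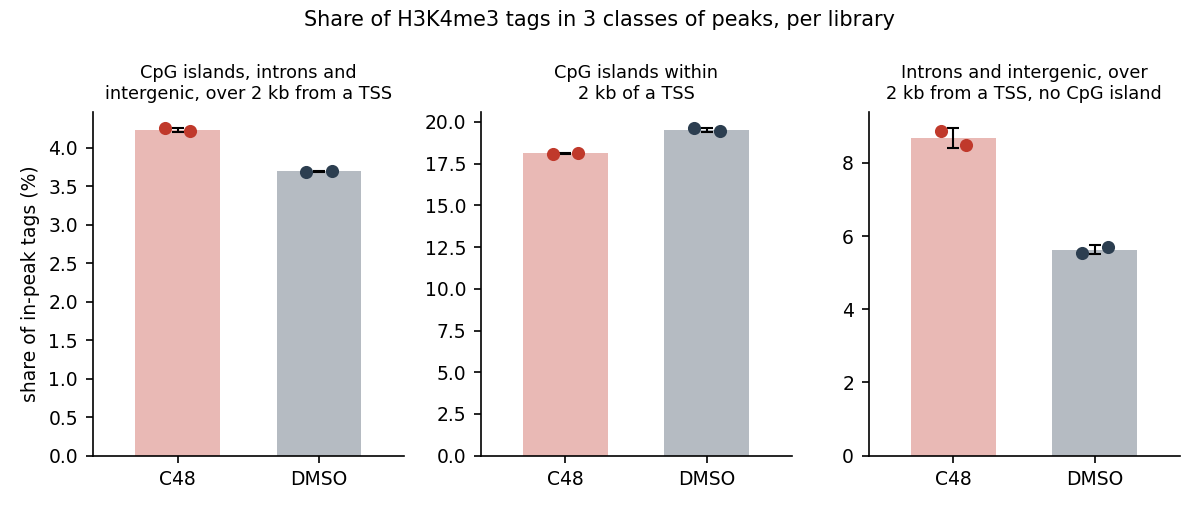
Share of in-peak H3K4me3 tags (%, axes from 0) held by 3 classes of peaks in C48 and DMSO libraries; points are libraries, bars are means and error bars are SD (n = 2 each). Members held 4.25% and 4.21% in C48 and 3.68% and 3.70% in DMSO libraries, CpG islands within 2 kb of a TSS held a smaller share in C48, and peaks without an island a larger one.

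In the fit across peaks, members stood between these classes. The median fold change was 0.13 for members, -0.42 for CpG islands within 2 kb of a TSS (652 higher and 2762 lower of 4083 tested) and 0.55 for intron and intergenic peaks without an island (7678 higher and 1293 lower of 14505). The gap between members and CpG islands within 2 kb of a TSS was 0.55 and stayed within 0.52 to 0.55 under the 5 scalings tried. The median of that nearer class itself was 0.32 on the ribosomal protein scale. Peaks annotated as promoter, a separate class, had a median of -0.29 (2536 higher and 6684 lower of 12283 tested). Peaks are not replicates, so no p-value is given for these gaps, and the test over libraries is the one on shares above. At the limit of the rule, intron and intergenic CpG-island peaks 1500 to 2000 bases from a TSS, had a median of 0.10 (n = 166), and members 2000 to 2500 bases away had 0.03 (n = 115). Members over 100 kb from any TSS had 0.30 (109 higher and 43 lower of 239).

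The direction followed the strength of the peak. Members with a mean of 5 to 20 were higher 247 times and lower 37 times, with a median of 0.38. At 100 to 200 the counts were 121 higher and 160 lower, with a median of -0.05, and above 500 they were 7 higher and 58 lower, with a median of -0.56. The same slope was present in both other classes. At a mean of 200 to 500, members had a median of -0.27. CpG islands within 2 kb of a TSS had -0.50 there, and peaks without an island -0.05. At a mean above 50 members lay between the other classes in each bin, and below 50 they had the lowest median of the 3 classes. Of the 121 members that passed the limit only through C48, 80 were higher and 0 lower. Of the 7 that passed only through DMSO, 0 were higher and 4 lower. These members are included above, and the split was not made by strength or for the other classes.

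**Figure D2:**
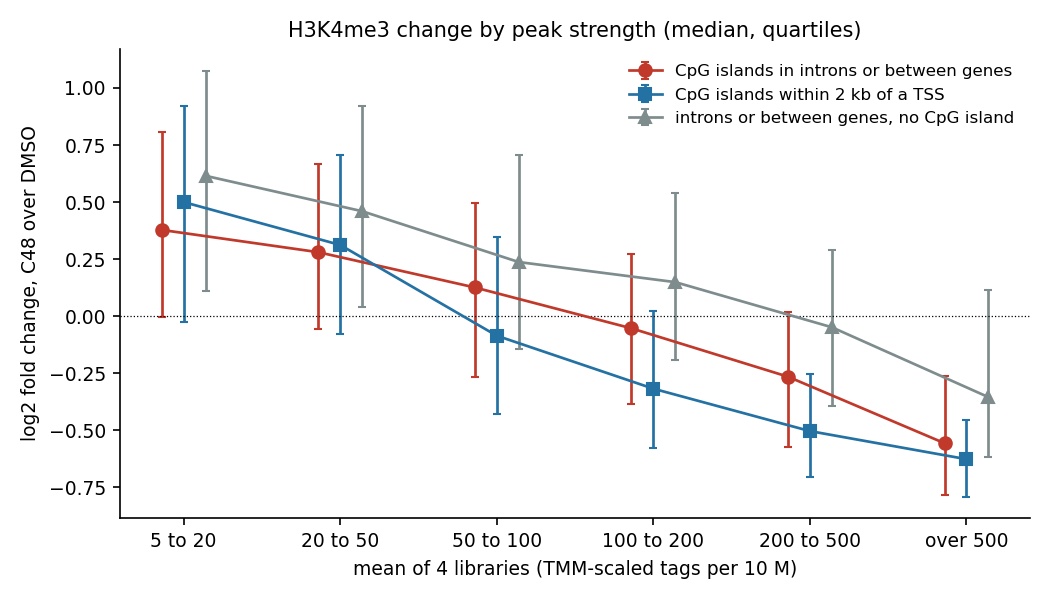
Log2 fold change of C48 over DMSO by peak strength (mean of 4 libraries, TMM-scaled tags per 10 M) for 3 classes of peaks; points are medians and bars run from the lower to the upper quartile over peaks. The median of the members fell with strength, being 0.38 at 5 to 20 and -0.56 above 500. Peaks that passed the limit on low values through a single group are included.

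By position, 292 intron members were higher and 177 lower of 727 (median 0.16), and 574 intergenic members were higher and 453 lower of 1614 (median 0.12). These are 40.2% and 35.6% higher, near the 37.4% of all tested peaks, and 24.35% and 28.1% lower, beside 34.1%. Members over 1 kb from a GENCODE start were higher 533 times (40.4%) and lower 273 times (20.7%) of 1320, with a median of 0.19. Members at such a start were higher 330 times (33.3%) and lower 343 times (34.65%) of 990, with a median of 0.01, which turned negative under several alternatives. The share of rises was thus near that of all tested peaks in both subsets. Members without a start held 1.94% and 1.91% of in-peak tags in C48 and 1.52% and 1.55% in DMSO libraries, a ratio of 1.25, while members at a start held 2.28% in each C48 library and 2.13% in each DMSO library, a ratio of 1.07. Members at a start were also stronger (median mean value 80.8 against 39.8), and after taking away the median of members of the same strength, 0.04 was left for members without a start and -0.04 for those with one.

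The merged peak set covers 5 cell lines, and the number of other lines in which a member had been called divided the members further. Members called in none of the 4 other lines were higher 276 times and lower 49 times of 502, with a median of 0.56. Such members entered the merged set only because HCC1428 libraries called them, and C48 libraries called more members than DMSO libraries. Part of this lean to rises may follow from that selection. Members called in all 4 were higher 223 times and lower 432 times of 954, with a median of -0.16 that was positive on the values as deposited (0.16). Strength differed here too (median mean value 17.1 and 116), and against members of the same strength the medians were 0.22 and -0.14. The peak caller of the authors found 2011 and 2022 members in the C48 libraries and 1952 and 1920 in the DMSO libraries. It called 1731 in all 4 libraries, 89 in both C48 and no DMSO library, and 48 in both DMSO and no C48 library. Over all peaks these last counts were 5533 and 1193, so the excess of calls in C48 libraries was smaller among members. It called 907 of the 3135 members in none of the 4 libraries (64326 of 110018 over all peaks). These are in the set through other cell lines. The members named below at MIRLET7A1, STMN3, LMTK3 and FRG2EP and the weaker FOXA1 peak are of this kind. Among tested members called in at least 1 library, 778 were higher and 563 lower of 2083. Of the members called in 0 other lines, 83 had passed the limit only through C48, and 218 of the 417 with both means at least 5 were higher and 48 lower.

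**Figure D3:**
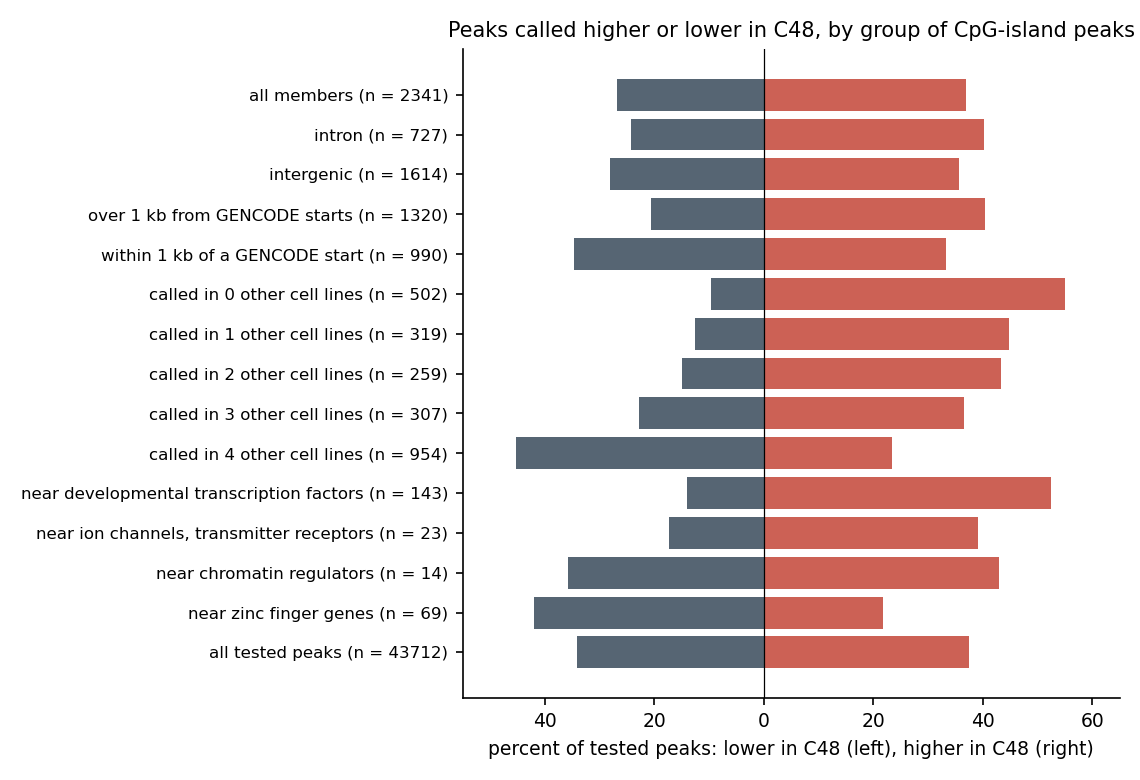
Percent of tested peaks called higher in C48 (right of 0) and lower in C48 (left of 0), for groups of members defined by position, by other cell lines and by nearest gene, with all tested peaks in the last row; n is the number tested. Among members called in 0 other cell lines, 55.0% were higher and 9.76% lower, and among those called in 4, 23.4% were higher and 45.3% lower. Members called in 0 other lines are in the peak set only through HCC1428 calls, which may favour rises.

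The largest rise among intron members lay upstream of CCND2, which encodes cyclin D2, a partner of the cell cycle kinases CDK4 and CDK6. The peak (chr12:4270834-4271550, upstream of the TSS in an intron of a noncoding transcript) had 43.6 and 44.4 tags in C48 libraries against 8.74 and 12.7 in DMSO libraries. Its fold change was 1.96 ± 0.19 (SE; adjusted p = 5.22e-14, limma), and it had been called in no other cell line. A neighbour (chr12:4271573-4271856) had 14.7 and 15.5 tags in C48 against 3.80 and 4.87 in DMSO libraries, and it passed the limit on low values only through C48. A more distant member assigned to CCND2 (chr12:4164631-4164918) rose by less (0.76 ± 0.29).

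PAX7, a paired-box factor of muscle stem cells, and UNCX, a homeobox factor of the developing spine and brain, followed. The intronic PAX7 peak (chr1:18646527-18647363) had 50.9 and 52.7 tags in C48 against 16.3 and 15.3 in DMSO libraries (1.65 ± 0.16), and a second PAX7 member (chr1:18643491-18643986) rose with it, with 30.4 and 25.4 tags in C48 against 9.37 and 7.66 in DMSO libraries. The UNCX peak (chr7:1235094-1235603), in the gene's own intron, had 95.4 and 86.8 tags in C48 against 32.3 and 31.2 in DMSO libraries (1.49 ± 0.12). Other large intron rises were in SEC14L5, of a lipid-binding family (1.73), and C22orf34 (1.56). In each of the 6 intron members with the largest rises, both C48 libraries exceeded both DMSO libraries, which the rule for naming them required.

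Among intergenic members with a mean of at least 20, most of the 6 largest rises lay near noncoding genes, pseudogenes or repeated loci. The peak assigned to LOC102723769 (chr22:11598704-11599498) had 237 and 224 tags in C48 against 60.7 and 71.2 in DMSO libraries (1.79 ± 0.09), and it lay 124 kb from the nearest GENCODE start. Its observed to expected CpG ratio was 0.46. Of 5 tested members assigned to LOC102723769, this 1 rose and 3 fell (median -0.19). The peak assigned to the noncoding gene CTD-2194D22.4 (chr5:1948767-1949295) had 65.5 and 62.4 tags in C48 against 16.5 and 19.7 in DMSO libraries (1.77 ± 0.15), and a GENCODE noncoding transcript starts 3 bases away. Near NTSR2, a neurotensin receptor gene, a peak (chr2:11656671-11657245) had 80.5 and 64.7 tags in C48 against 22.2 and 24.9 in DMSO libraries (1.58 ± 0.14). The other 3 were assigned to MLLT10P1 (1.69), FRG2EP (1.61) and MIR12118 (1.58). Of the 12 largest rises, 3 lay within 1 kb of a GENCODE start and 10 had been called in at most 2 other cell lines.

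The largest fall was upstream of the let-7 cluster, at a peak that the authors' caller found in none of the 4 libraries. The peak assigned to MIRLET7A1 (chr9:94166006-94166254), a let-7 microRNA gene, had 42.5 and 51.9 tags in C48 against 137 and 145 in DMSO libraries (-1.57 ± 0.10, adjusted p = 5.82e-20, limma), and lay 128 bases from a GENCODE start of the host transcript MIRLET7A1HG. Upstream of MIR193BHG, the host of miR-193b, a peak (chr16:14285246-14285867) far from any GENCODE start (10.0 kb) had 101 and 110.4 tags in C48 against 256 and 262 in DMSO libraries (-1.29 ± 0.08). The peaks assigned to HNRNPD, which encodes an RNA-binding protein, and to GSDMA, a pore-forming gasdermin, fell by 1.33 and 1.28 and lay 53 and 187 bases from GENCODE starts. At these 4 peaks both C48 libraries lay below both DMSO libraries, which the rule for naming them required.

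Among intron members, the falls were at LOC100996724 (-1.27), a PDE4DIP-like pseudogene, STMN3, HUWE1 and LMTK3. The STMN3 peak (chr20:63641492-63641978), in a gene for a microtubule-destabilising stathmin, had 30.1 and 30.6 tags in C48 against 73.8 and 65.6 in DMSO libraries (-1.17 ± 0.13). The peak in HUWE1 (chrX:53683513-53684289), which encodes a ubiquitin ligase, had 171 and 173 tags in C48 against 378 and 382 in DMSO libraries (-1.14 ± 0.06), and lay 255 bases from a GENCODE start of that gene. The LMTK3 peak, in a kinase gene, fell by 1.11 and, like the STMN3 peak, was called in none of the 4 libraries. Of the 8 largest falls, 4 lay within 1 kb of a GENCODE start and 3 had been called in at most 2 other lines. All 20 members with the largest rises and falls kept their direction and their call under each of the 15 alternatives.

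The 5 strongest members did not move together. The peak at ZNF217, a zinc finger gene often amplified in breast cancer, was the strongest (chr20:53593095-53594633) and had 2199 and 2252 tags in C48 against 4598 and 4656 in DMSO libraries (-1.06 ± 0.02). It lies 25 bases from a GENCODE start of ZNF217, so it is a promoter by that annotation. The peaks assigned to CHD7, a chromatin remodeller (1884 and 1926 tags in C48, 4116 and 4135 in DMSO libraries, -1.11), and to NCRNA00250 (1315 and 1337 in C48, 2233 and 2092 in DMSO libraries, -0.70) also fell. The peaks near CDR2L, a paraneoplastic antigen gene (0.18), and WNT11, a Wnt ligand gene (0.09), were higher by small amounts, and the WNT11 call was lost in 6 of the 15 alternatives, among them leaving out DMSO replicate 1 (0.07) or DMSO replicate 2 (0.08). The call at NCRNA00250 was lost on the ribosomal protein scale (0.03).

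**Figure D4:**
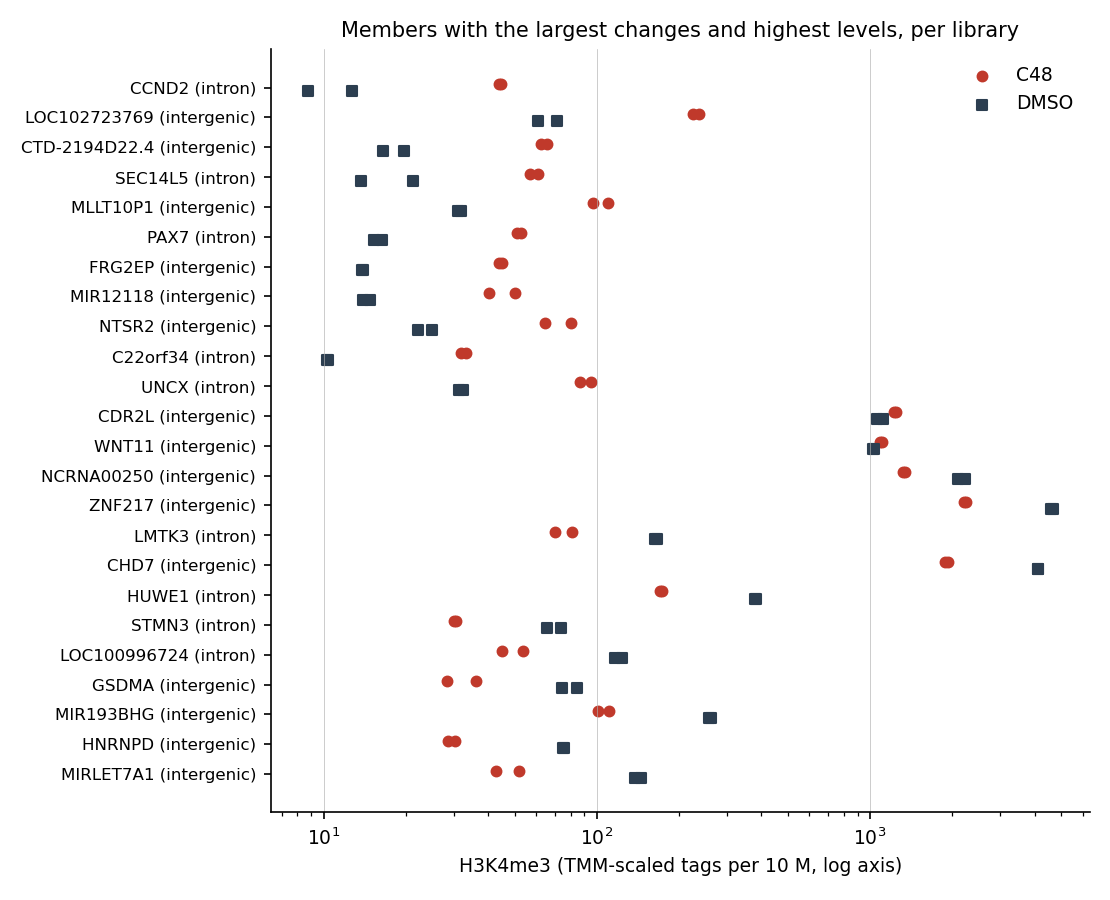
H3K4me3 of the reported members among those with the largest rises and falls, and of the 5 strongest members, in each library (TMM-scaled tags per 10 M, log axis); circles are C48 libraries and squares DMSO libraries. At CCND2 the C48 libraries sit at 43.6 and 44.4 and the DMSO libraries at 8.74 and 12.7, and at ZNF217 the C48 libraries sit at 2199 and 2252 below the DMSO libraries at 4598 and 4656.

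Developmental transcription factor genes are a common neighbour of orphan islands, and their islands are a textbook site of Polycomb binding in cells that do not use them. Of 143 tested members whose nearest gene carried the symbol of such a family, 75 rose, 20 fell and 48 did not pass the test, with a median of 0.43, beside 37.4% higher and a median of 0.09 over all tested peaks. Of these 143, 8 passed the limit on low values only through C48, and 69 of the other 135 rose and 20 fell. The 143 belong to 92 genes, of which 52 had a member that rose, 19 one that fell and 6 both. The list was filled by symbol prefix, so it also takes in FOXCUT and EMX2OS, which are noncoding, and GATAD2A, a subunit of the NuRD complex. These members were weaker than most (median mean value 36.4), and 0.23 was left after the median of members of the same strength was taken away. The median was positive under every alternative, at 0.31 to 1.15, and rises outnumbered falls in each.

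The 3 members with the smallest p in this list were near HOXA6, LHX5 and PAX2. HOXA6 is a homeobox gene that sets position along the body axis, and its member (chr7:27150394-27151033), 110 bases from a GENCODE start of HOXA6, had 423 and 439 tags in C48 against 243 and 250.4 in DMSO libraries (0.80 ± 0.06). The LHX5 member (chr12:113467283-113468083), in a gene for a LIM homeobox factor of the forebrain, had 207 and 216 tags in C48 against 106 and 106 in DMSO libraries (0.99 ± 0.08). The PAX2 member (chr10:100655664-100656991), near a paired-box gene of kidney development, had 312 and 317 tags in C48 against 189 and 188 in DMSO libraries (0.74 ± 0.06). In all 3 the libraries of a group lay close together and far from the other group, which choosing by smallest p favours.

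Other loci of the list, chosen after their values were seen, showed several members rising side by side. At FOXF2, a forkhead gene of connective tissue, neighbouring peaks rose by 1.04 and 1.43, and the stronger of these (chr6:1381643-1382545) had 48.6 and 49.4 tags in C48 against 22.7 and 23.9 in DMSO libraries. At EMX2, a homeobox gene of the cortex and urogenital tract, 2 peaks rose by 1.07 and 1.17, and the stronger (chr10:117534329-117535036) had 99.7 and 86.8 tags in C48 against 42.7 and 39.0 in DMSO libraries. All 3 tested members of LMX1A and all 3 of MSX1, both homeobox genes, rose as well (0.57 to 1.14 and 0.58 to 1.08). Other members of the list fell, 20 in all. The member at SIX6, a homeobox gene of the eye (chr14:60514720-60515278), had 41.8 and 47.7 tags in C48 against 85.8 and 81.8 in DMSO libraries (-0.89 ± 0.11). In the family of SIX6, 2 of 3 tested members fell and 1 rose (median -0.43). All 4 tested members with the GATA prefix, at 3 genes, fell (median -0.70). Among these were GATA2 (-0.83 ± 0.22), a factor of blood cell precursors, and GATAD2A, taken in by its symbol only. Members of the list called in 0 other cell lines were higher 28 times and lower 0 times of 41, and those called in all 4 were higher 8 times and lower 11 times of 29. The first of these groups is in the peak set only through HCC1428 calls, which may favour rises.

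Zinc finger genes, many of which encode repressors of the KRAB family, leaned the other way: 29 of their 69 tested members fell and 15 rose, with a median of -0.11. Over all tested peaks, 34.1% fell and 37.4% rose, with a median of 0.09. These were strong peaks (median mean value 104), 38 of them lay within 1 kb of a GENCODE start, and -0.15 was left after the median of members of the same strength. On the values as deposited the list turned, with 33 higher and 14 lower, and on the ribosomal protein scale 57 were higher and 2 lower. Beside ZNF217, the members near ZNF609 (chr15:64460515-64460959; 69.7 and 73.5 tags in C48, 178 and 169 in DMSO libraries; -1.26) and ZNF827 (-0.86) had the smallest p, and these lay 5 and 537 bases from GENCODE starts of the same genes.

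Near genes of ion channels and transmitter receptors 9 members rose and 4 fell of 23, a share of rises near the 37.4% of all tested peaks. As deposited 14 were higher and 2 lower, and on the ribosomal protein scale 23 were higher and 0 lower. Named by smallest p were GRIN1, an NMDA receptor subunit gene (-0.62, with 607 and 588 tags in C48 against 910 and 929 in DMSO libraries), KCNN1, a potassium channel gene (-0.58), and CHRND, a muscle acetylcholine receptor gene (0.67). GRIN1 and KCNN1 changed sign on the ribosomal protein scale (0.12 and 0.16). Of 5 tested members at imprinted genes, which are expressed from 1 parental copy, 3 rose, among them GNAS (0.59 ± 0.08) and SNRPN (0.50 ± 0.13), and TRAPPC9 fell (-0.73 ± 0.05; 0.01 on the ribosomal protein scale). The study's interferon signature, a list the study chose itself, had 1 tested member, near SOCS3, an inhibitor of cytokine signalling, with 106 and 105 tags in C48 against 110 and 119 in DMSO libraries (-0.11 ± 0.09, adjusted p = 0.243, limma). No member was assigned to the clustered protocadherins.

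Of 14 members at genes of chromatin regulators, 6 rose and 5 fell, near the 37.4% and 34.1% of all tested peaks. As deposited 8 were higher and 2 lower, and on the ribosomal protein scale 12 were higher and 0 lower. CBX8, a Polycomb subunit gene, had a member (chr17:79800684-79801301) with 412 and 411 tags in C48 against 256 and 244 in DMSO libraries (0.72 ± 0.06), and a weaker neighbour that rose by 1.67. SETD1B, which encodes a writer of H3K4 methylation, had an intronic member (chr12:121811500-121812791) with 393 and 427 tags in C48 against 274 and 284 in DMSO libraries (0.55 ± 0.06). KDM6B, which encodes a demethylase of H3K27, had 5 members, of which 4 fell and 0 rose (-0.75 to 0.04). The strongest fall of these (chr17:7835534-7836305) had 182 and 202 tags in C48 against 328 and 319 in DMSO libraries, and it was not called on the ribosomal protein scale (-0.01), where none of the 5 fell. On the values as deposited 2 of the 4 falls were still called. The single member at KDM5B, itself a target of C48, did not pass the test (405 and 402 tags in C48, 425 and 426 in DMSO libraries; -0.08 ± 0.05).

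Members of 1 gene could move apart. BCOR, which encodes a subunit of a Polycomb complex that is drawn to CpG islands, had the most tested members, 17 over 166 kb, of which 10 rose, 2 fell and 5 did not pass the test (-0.78 to 1.18). At chrX:40012260-40012509 there were 135 and 136 tags in C48 against 58.9 and 59.2 in DMSO libraries (1.18 ± 0.10). Nearby, at chrX:40014474-40014764, there were 38.1 and 42.9 tags in C48 against 69.2 and 70.7 in DMSO libraries (-0.78 ± 0.12). The strongest BCOR member rose by little, with 929 and 979 tags in C48 against 877 and 892 in DMSO libraries (0.11 ± 0.04). On the values as deposited 15 BCOR members were higher and 1 lower, and on the ribosomal protein scale 16 were higher and 0 lower. Without a filter on low values 7 were higher and 1 lower. BCORL1, a paralog of BCOR, had 7 members, of which 4 fell and 0 rose (-0.84 to 0.09). Leaving out DMSO replicate 1 or C48 replicate 2 left 2 falls, and no filter on low values left 1. On the values as deposited 2 BCORL1 members were higher and 1 lower, and on the ribosomal protein scale 6 were higher and 1 lower. PAX2 had 9 members, of which 3 rose and 1 fell (-0.35 to 0.74). As deposited 6 PAX2 members were higher and 0 lower, and on the ribosomal protein scale 9 were higher and 0 lower.

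**Figure D5:**
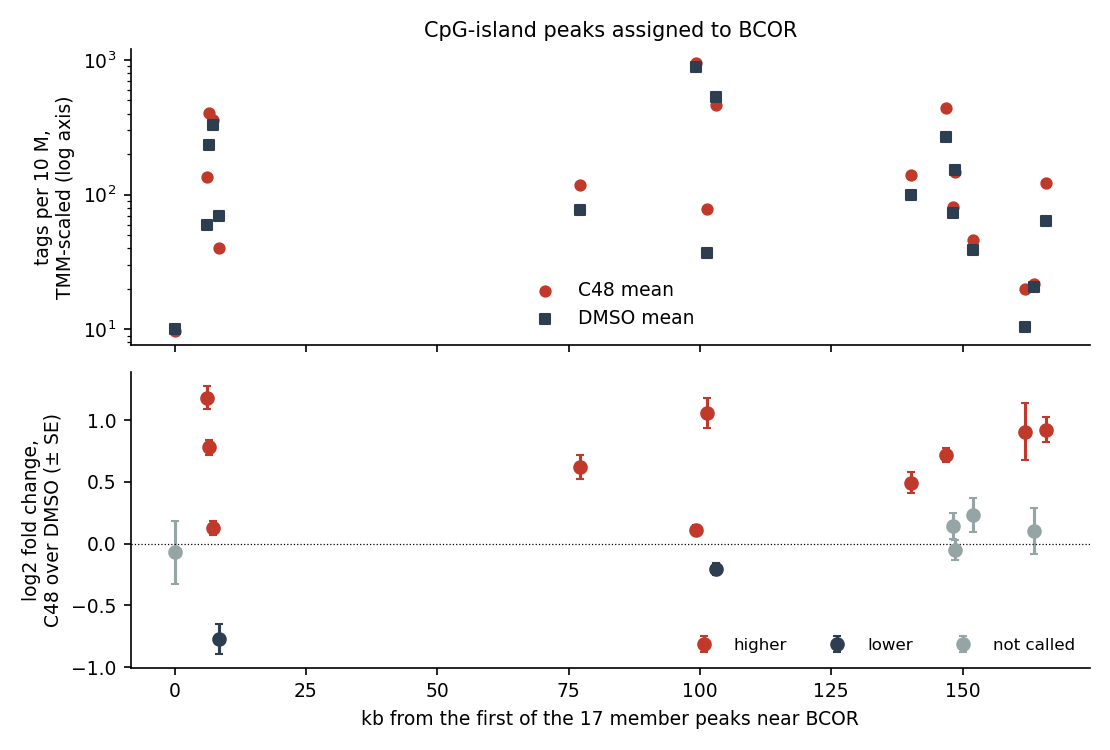
The 17 tested members assigned to BCOR, by distance in kb from the first of them; the upper panel gives group means (TMM-scaled tags per 10 M, log axis) and the lower panel the log2 fold change of C48 over DMSO with its SE. Of these, 10 were higher in C48, 2 lower and 5 not called, and peaks of both directions lie within a few kb of each other.

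Neighbours also moved apart near FOXA1, which encodes a pioneer factor of luminal breast cells, where the pair lies 0.975 kb apart from start to start. The weaker peak (chr14:37584416-37584694) had 25.8 and 33.8 tags in C48 against 13.2 and 12.7 in DMSO libraries (1.13 ± 0.19, adjusted p = 6.47e-07, limma). The authors' caller found this weaker peak in none of the HCC1428 libraries. The stronger one (chr14:37583441-37584071) had 172 and 190.4 tags in C48 against 249 and 232 in DMSO libraries (-0.40 ± 0.07, adjusted p = 9.10e-07). The fall was not called on the values as deposited (-0.07), and on the ribosomal protein scale the stronger peak was higher (0.33), where the weaker one had 1.83. Near EGFR, the other gene of the breast epithelial list with a member, the peak did not pass the test (-0.03 ± 0.11).

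Peaks joined when under 1 kb apart gave 2833 islands, of which 2568 held a single member. Of 190 islands with at least 2 tested members, 99 had every tested member called in the same direction and 18 had members called in both. In these 190 islands the strongest member had a median of -0.09 and the others 0.10, the same order as for strength overall. A comparison with the promoter of the nearest gene was possible for 887 members. Their median was 0.11, against -0.20 for the promoters, and 578 of them (65.2%) had the higher fold change of the pair. The correlation of members and promoters across these pairs was weak (Pearson r = 0.20, across peaks that share libraries and differ in strength). Of the members that rose, 141 had a promoter that fell and 94 one that rose. Falling promoters were also the more common among members that fell (153, against 38 that rose) and among those not called (146, against 78).

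A run of members near the centromere of chromosome 20, noticed after the values were seen, rose almost together. Of 19 tested members there, 16 rose and 1 fell, with a median of 1.00, beside 37.4% higher, 34.1% lower and a median of 0.09 over all tested peaks. The MLLT10P1 member (chr20:30813797-30814177) had 97.1 and 110.0 tags in C48 against 30.9 and 31.7 in DMSO libraries, and the FRG2EP member (chr20:29410437-29410721), near the pseudogene DUX4L34, had 45.0 and 43.7 against 13.9 and 13.8. Of 8 tested members within 2.5 kb of a 5S or 5.8S ribosomal RNA model of GENCODE, 7 rose and 0 fell, and 5 of them belong to the same run. These regions hold near-identical copies, so reads can be shared between copies and the values of single peaks are uncertain.

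Of the members named for their distance from a TSS, the LINC00290 member (chr4:180058015-180059961), 1100 kb away, had 129 and 127 tags in C48 against 125 and 127 in DMSO libraries (0.02 ± 0.08), and the LINC01435 member (chr10:108911837-108912497) had 133 and 151 against 116 and 138 (0.17 ± 0.09). Neither passed the test and the groups overlapped in both. The third, not reported in detail here, was higher in C48 and passed the test, with groups apart.

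Sequence differed somewhat between members that rose and fell, beside strength. The GC box (GGGCGG, either strand, in the 300-base window) was present in 67.6% of members and 24.5% of all peaks. It was present in 62.7% of members that rose and 79.5% of those that fell, whose median GC content was 67.7% and 70.7%. The motif GCACA (either strand), bound by the ARID domain of KDM5B, was present in 42.9% of members and 49.0% of all peaks, and in 46.1% of members that rose and 39.2% of those that fell. A match is not a binding site. Members with an observed to expected CpG ratio above 0.9 had a median of 0.00 (156 higher and 188 lower of 536), against 0.25 for those under 0.6 (88 higher and 31 lower of 203), and against members of the same strength the medians were -0.10 and 0.11. Across the 2332 tested members with sequence, Spearman's rho with the fold change was -0.14 for this ratio and -0.43 for the mean value, given as a description.

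The libraries held 58.4 and 72.7 M aligned tags (C48) and 88.4 and 64.6 M (DMSO), of which 64.0% to 66.3% lay in merged peaks, and tested members had a median of 355 tags per library. On the log scale the members correlated at 0.99 within each group and 0.95 between groups, with no library standing apart. Of 7 luminal marker genes, 4 had a promoter peak analysed here, and none of 8 markers of blood, stroma and endothelium had one. The luminal genes GATA3, EPCAM and CDH1 had none either, so a missing peak does not show that a cell type is absent. On the deposited scale, without TMM, the FOXA1 promoter had 417 and 453 tags in C48 against 738 and 709 in DMSO libraries, KRT8 had 372 and 376 against 608 and 598, KRT18 had 87.7 and 95.6 against 122 and 136, and ESR1, too weak to be tested, had 7.02 and 3.99 against 0.68 and 0.93. The share of in-peak tags on the mitochondrial genome was 0.16% in C48 and 0.60% in DMSO cells, and its part in these results was not tested.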

How the data were processed

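The authors aligned the CUT&Tag reads to hg38 with Bowtie2 2.3.4.1, called peaks per library with HOMER and merged them over 20 libraries of 5 cell lines. The deposited signal is the tags of each library in each merged peak per 10 M aligned tags, and the peak score the authors deposited was not used. The table carries no spike-in scaling, and its repeat table was not used here. All value columns matched a labelled sample (0 unmatched). Dividing by the value of 1 tag gave whole tags for 100% of values (tolerance 0.1 tags), and edgeR 4.0.16 on these tags called 852 members higher and 637 lower. Members and gene lists were chosen with earlier results of these data known.

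Because the values are normalized, they were multiplied by TMM factors (edgeR) and tested as log2(value + 1) with limma 3.58.1 (trend) in R 4.3.3, 2 C48 against 2 DMSO libraries, for 43712 peaks with a mean deposited value of at least 5. The limma and edgeR tests were also run on simulated data in which few peaks changed, as many up as down. In the real data most tested peaks were called, so that check cannot decide between the scalings. Shares were compared by exact permutation. Other scalings, DESeq2 1.42.0, edgeR, pseudocounts, filters, a replicate block and leaving out each library were alternatives. Named by rule were called members on the main chromosomes with a mean of at least 20 and groups that did not overlap (the 6 largest rises and 4 largest falls in introns and the same between genes, with 1 per island), the 5 strongest, the 3 farthest from a TSS, the 3 genes with most members and up to 3 members of smallest p per list. Of the members the rule named, 2 are not reported here. Sequence came from the hg38 reference and transcript starts from GENCODE 44 (Python 3.11.15).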

Additional observations from a re-analysis of the deposited data

How the results depend on the processing

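The scaling between libraries decided how many members were higher or lower. On the values as deposited 1396 were higher and 299 lower (median 0.45), with column totals 1468 and 263 (0.49), and with ribosomal protein promoters 1970 and 56 (0.84). The median was 0.063 with DESeq2 size factors, 0.068 with the DESeq2 Wald test, 0.11 with a pseudocount of 5, 0.0395 without a filter on low values (438 higher and 446 lower) 0.024 at a mean of at least 20 and 0.094 for members with both group means at least 5, an alternative chosen after seeing the data. Over 1 kb from GENCODE starts, 533 were higher and 273 lower (0.19). Leaving out 1 library at a time gave medians of 0.11 to 0.15, with 723 to 830 higher and 543 to 608 lower. CpG islands within 2 kb of a TSS were higher 1278 times and lower 1828 times as deposited (-0.087), 1408 and 1681 with column totals (-0.045) and 2743 and 349 with ribosomal protein promoters (0.32), and had -0.48 with DESeq2 size factors. Peaks without an island were lower 547 times as deposited (0.85), 491 times with column totals (0.89) and 171 times, against 12454 higher, with ribosomal protein promoters (1.22), and had 0.48 with DESeq2 size factors. Members at a GENCODE start had medians below 0 with DESeq2 size factors (-0.057), the Wald test (-0.056), no filter (-0.014) and a mean of at least 20 (-0.0595), and of -0.0091 to 0.035 with 1 library left out, below 0 without DMSO replicate 1 or DMSO replicate 2. The cause of these shifts was not tested beyond the scalings themselves.

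Among the 46 named members the sign turned for EGFR (0.30 as deposited, 0.34 with column totals, 0.70 with ribosomal protein promoters) and SOCS3 (0.22, 0.26 and 0.62 in the same order), neither of which was called on the TMM scale, and with ribosomal protein promoters for FOXA1 (0.33), KCNN1 (0.16), GRIN1 (0.12), NCRNA00250 (0.034) and TRAPPC9 (0.0092). LINC00290, never called where its sign turned, had -0.051 with DESeq2 size factors and with the Wald test and -0.0053 without DMSO replicate 1. EGFR, likewise uncalled, had 0.067 and 0.071 without DMSO replicate 2 and C48 replicate 1. Of all values of named members under the alternatives, 653 kept direction and side of the threshold, 5 changed sign with no call in either, 13 lost the call, 8 gained it and 11 turned with a call in at least 1 of the fits. The deviations of same-numbered libraries from their group means did not go together across all tested peaks (correlation -0.03). Such a correlation, with 2 libraries a group, cannot decide whether same-numbered libraries share a culture or batch. Under the replicate block 861 members were higher and 627 lower. With 2 libraries a group, changes at weak peaks are the least certain.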
